A study of Mus musculus with 96 samples.

Results

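Ciart, Bhlhe40 and Bhlhe41 encode transcriptional repressors that act on E-boxes, the DNA sites bound by the activators of the circadian clock. The 3 genes were taken by name from a table of 55421 mouse Ensembl genes counted in liver RNA, and all 3 passed the filter on low counts that kept 15772 genes for testing. The study compared 2 mouse lines, called Bmal1 and Cry after the clock genes knocked out in them, and sampled livers at 6 zeitgeber times (ZT), which count hours from lights on and were spaced 4 h apart. Each line had wild type (WT) and knockout (KO) mice that were fed ad libitum (AL) or restricted to feeding at night (RF). The KO was of Bmal1 (gene symbol Arntl) in one line and of both Cry1 and Cry2 in the other. This gave 8 groups of 12 libraries, with 2 libraries at each time, 96 in all, from mice 12 to 16 weeks old. The labels name no allele, no Cre driver and no strain, and they do not say whether a library came from 1 animal or from a pool. No label links a library to an animal. The spread behind each p-value is therefore one between libraries and may in part be technical.

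In the mammalian clock, BMAL1 pairs with CLOCK or NPAS2, binds E-boxes and switches on the Per and Cry genes, whose proteins return to block the same activators. Ciart, also known as Chrono, encodes a further repressor of BMAL1 and CLOCK that works together with histone deacetylases. Bhlhe40 (Dec1) and Bhlhe41 (Dec2) are basic helix-loop-helix factors of the Orange family. They bind E-boxes themselves, compete with the activators there, and are also known as responders to hypoxia, feeding signals and lipid metabolism in the liver. All 3 genes are themselves driven from E-boxes, so that each is both a product and a brake of the activator pair.

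In the mm10 assembly Ciart (ENSMUSG00000038550) lies on the minus strand at chr3:95878503-95882251, with 2261 bases of exon. Bhlhe40 (ENSMUSG00000030103) lies on the plus strand at chr6:108660629-108666925, with 4705 bases of exon. Bhlhe41 (ENSMUSG00000030256) lies on the minus strand at chr6:145858243-145865558, with 6720 bases of exon. The RefSeq promoter windows of Ciart and Bhlhe41 (GRCm38.p6, minus strand) run from 250 bases before to 50 after the RefSeq start site. They are shown because both genes respond to the loss of an E-box activator and its blockers. No window of Bhlhe40 was matched. Capitals mark the perfect E-box CACGTG, which reads the same on both strands. The window of Ciart is chr3:95882179-95882478 and that of Bhlhe41 is chr6:145865371-145865670.
Ciart: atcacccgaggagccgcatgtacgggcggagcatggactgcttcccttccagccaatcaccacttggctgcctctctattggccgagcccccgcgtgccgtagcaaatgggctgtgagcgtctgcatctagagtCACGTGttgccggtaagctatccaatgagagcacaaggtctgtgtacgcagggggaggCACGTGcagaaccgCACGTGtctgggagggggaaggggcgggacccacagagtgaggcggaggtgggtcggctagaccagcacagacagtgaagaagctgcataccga
Bhlhe41: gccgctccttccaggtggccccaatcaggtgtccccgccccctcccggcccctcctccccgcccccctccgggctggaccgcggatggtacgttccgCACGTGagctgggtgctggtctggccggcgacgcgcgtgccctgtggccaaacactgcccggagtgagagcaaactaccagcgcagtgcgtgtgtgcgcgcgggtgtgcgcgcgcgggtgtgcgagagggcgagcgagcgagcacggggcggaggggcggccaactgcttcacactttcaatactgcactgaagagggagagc

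The Ciart window held 3 perfect E-boxes, which began at positions -116, -58 and -44 from the RefSeq start site, the last pair 14 bases apart. The Bhlhe41 window held 1, at -153. Both RefSeq start sites lie inside the gene bounds given above, so the distances from those bounds are shorter. Of 32851 RefSeq windows of 300 bases, 7.15% held at least 1 CACGTG, 0.594% at least 2 and 0.0883% at least 3. The related E'-box CACGTT, searched on both strands, was in neither window and in 4.68% of all windows. Among 15 other genes known as E-box targets, 12 had such a window. CACGTG was found in 3 of these 12 and 0 of the 12 held 3 copies. CACGTT was found in the windows of Cry1, Cry2 and Nr1d1. A match is a description of the letters and not a measured binding site.

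Library totals ran from 1478963 to 35568856 counts, with a median of 25422366. The targeted genes kept reads in the KO groups. The counts are per whole gene and the labels do not say which part was deleted, so they do not check the deletion. Arntl had a median of 22.3 CPM (counts scaled to a common library size, with TMM factors) in Bmal1 WT AL and 11.2 CPM in Bmal1 KO AL. Its level ranged from 0.272 to 35.3 CPM over the day in the WT livers and from 9.70 to 14.9 CPM in the KO livers. Cry1 was lower in Cry KO than in Cry WT by a log2 difference of -1.32 ± 0.12 (SE) under AL, and Cry2 by -0.64 ± 0.09 (edgeR, adjusted p = 7.04e-13 and 1.45e-07). Hepatocyte markers (6 genes, among them Alb and Apoa1) summed to 28675 CPM or more in every library. Their sum was lower in the Bmal1 KO, with a median of 39197 CPM (28675 to 49119) against 94399 CPM (68113 to 120573) in WT under AL, where the groups did not overlap, and of 44283 CPM (32713 to 47406) against 80126 CPM (45039 to 93602) under RF. A sum of CPM follows its most abundant genes. Taken singly, 2 of the 6 markers were called lower under AL and 1 under RF, and 0 were called higher. Of all genes tested, 10.7% and 10% were called lower. The markers had a median log2 difference of -0.24 (-1.77 to 0.27) under AL and -0.19 (-1.27 to 0.35) under RF. The part of this marker difference in the levels of the repressors was not tested. Of the 2 numbered series of 6 libraries in Cry KO AL, series 2 had a median endothelial marker sum of 103 CPM and a Kupffer cell marker sum of 163 CPM, against 313 and 311 CPM in series 1. In a bulk liver sample, fewer cells of a type and less RNA per cell cannot be told apart.

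In WT livers the highest group means of the 3 repressors fell one after another, from the second part of the light phase to the first part of the night. This order was not tested. Bhlhe41 came first with its highest mean at ZT8, Ciart followed at ZT12 and Bhlhe40 was highest at ZT16, in all 4 WT groups. Bhlhe40 also had an earlier high at ZT8. In Cry WT AL series 2 it was highest at ZT20, with 183 CPM against 162 CPM at ZT16. Ciart changed most over the day, Bhlhe41 less, and Bhlhe40 least and from the highest level.

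Ciart in Bmal1 WT AL stood at 0.425 and 0.404 CPM at ZT0 and at 43.0 and 16.8 CPM at ZT12. Over the 12 libraries its lowest, median and highest levels were 0.400, 5.75 and 43.0 CPM in Bmal1 WT AL and 0.239, 5.26 and 36.1 CPM in Bmal1 WT RF. They were 0.321, 3.77 and 36.9 CPM in Cry WT AL and 0.181, 10.9 and 42.1 CPM in Cry WT RF. The mean at ZT12 was 72.2, 97.5, 97.5 and 75.1 times the lowest mean of the day in these 4 groups, in the same order. The low point fell at ZT0 or ZT4, when the WT libraries held as few as 5 counts.

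Bhlhe40 in Bmal1 WT AL stood at 46.1 and 24.3 CPM at ZT4 and at 121 and 156 CPM at ZT16. Its lowest, median and highest levels were 24.3, 82.2 and 156 CPM in Bmal1 WT AL and 35.4, 94.5 and 158 CPM in Bmal1 WT RF. In Cry WT AL they were 27.2, 97.9 and 216 CPM, and in Cry WT RF 26.9, 111 and 162 CPM. The mean at ZT16 was 3.94, 3.77, 4.93 and 5.28 times that at ZT4. Between these times the level did not climb steadily. At ZT12 it was lower than at ZT8 in 7 of 8 WT series, and at ZT16 it was higher than at ZT12 in 8 of 8.

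Bhlhe41 in Bmal1 WT AL stood at 0.189 and 0.639 CPM at ZT0 and at 7.94 and 17.2 CPM at ZT8. Its lowest, median and highest levels were 0.189, 1.48 and 17.2 CPM in Bmal1 WT AL, and 0.572, 1.54 and 18.5 CPM in Bmal1 WT RF. In Cry WT AL they were 0.442, 1.78 and 11.1 CPM, and in Cry WT RF 0, 1.22 and 14.2 CPM, with 1 library at 0. The peak was narrow: from ZT8 to ZT12 the level was lower in 8 of 8 WT series.

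Per kilobase of exon, the median level in Bmal1 WT AL was 17.5 CPM for Bhlhe40, 2.54 CPM for Ciart and 0.220 CPM for Bhlhe41. The order was the same in the other 3 WT groups. It also held in the KO groups, where Ciart ranged from 0.234 CPM per kilobase in Bmal1 KO AL to 19.2 in Cry KO RF.

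**Figure D1:**
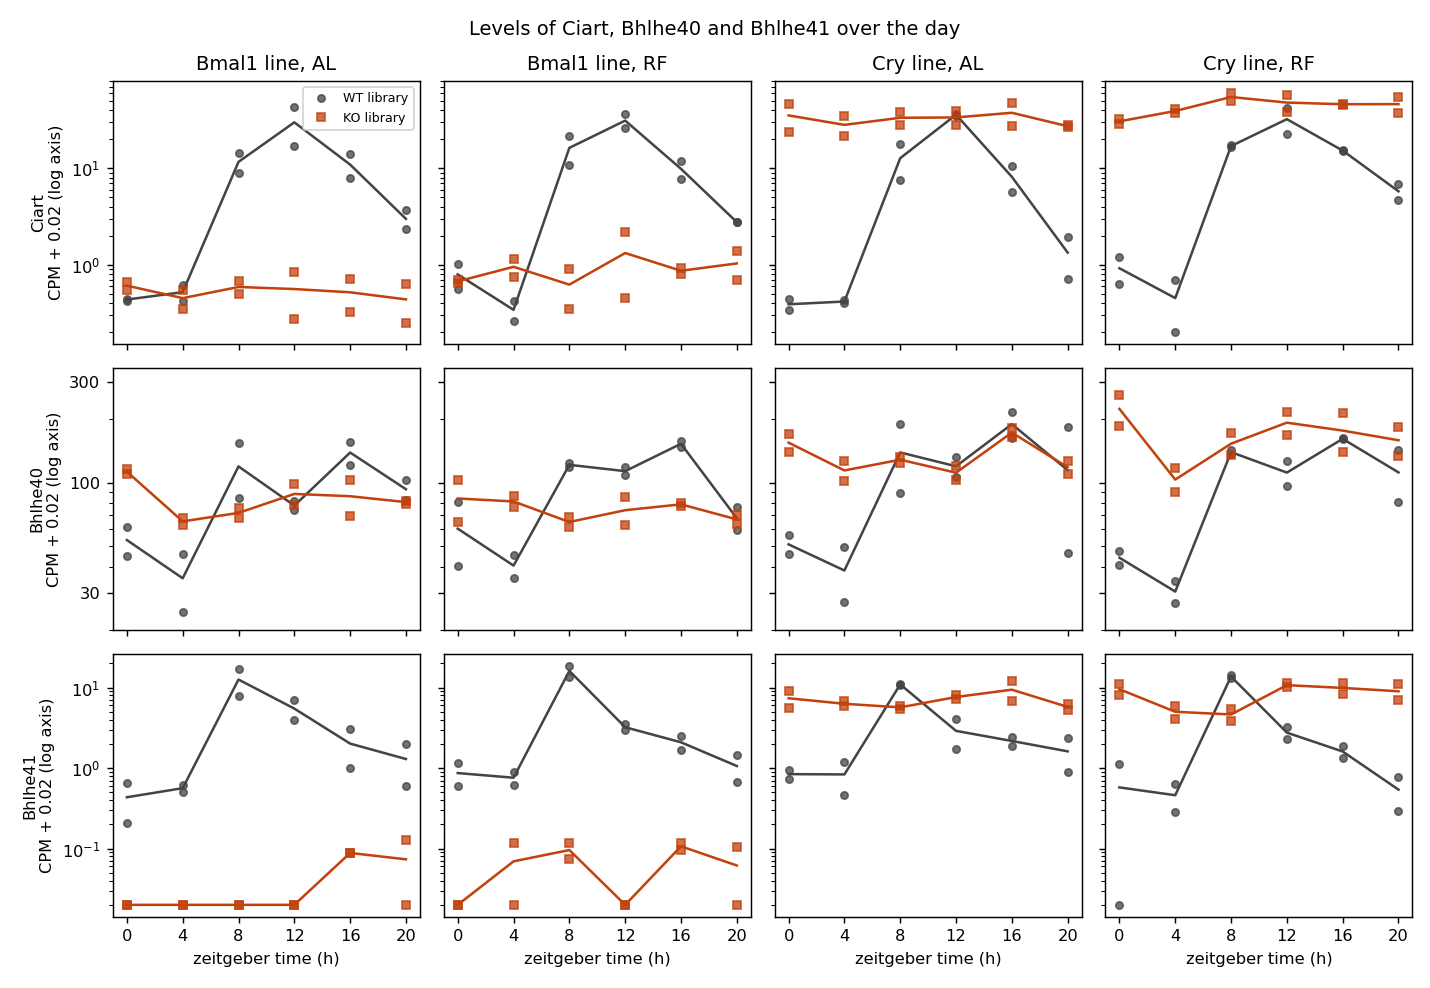
Level of each gene (CPM + 0.02, log axis) against zeitgeber time (h) in each line and feeding regimen. Points are single libraries, lines join the means of the 2 libraries at a time, grey is WT and orange is KO. In the Bmal1 line the KO livers stay near the WT low of Ciart and far under the WT range of Bhlhe41, and in the Cry line the KO livers stay near the WT peak of Ciart all day.

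A 24 h cosine fitted to each group gave the timing and size of these rhythms (edgeR quasi-likelihood F test, where a call needed an adjusted p under 0.05 and 0.5 log2 or more between peak and trough). All 3 genes were rhythmic in all 4 WT groups. Over all genes tested, 9.97%, 12.8%, 6.67% and 18.9% were rhythmic in Bmal1 WT AL, Bmal1 WT RF, Cry WT AL and Cry WT RF. The fitted range of Ciart was 6.02 ± 0.60, 5.74 ± 0.57, 6.92 ± 0.63 and 5.61 ± 0.57 log2 (SE) in that order, with peaks between ZT 12.1 and 12.9. Bhlhe41 had ranges of 4.29 ± 0.79, 4.12 ± 0.79, 3.04 ± 0.74 and 4.40 ± 0.83 log2 and peaked between ZT 9.50 and 10.6. Bhlhe40 had ranges of 1.48 ± 0.38, 1.63 ± 0.38, 2.06 ± 0.38 and 2.15 ± 0.38 log2 and a fitted peak between ZT 13.4 and 14.2. A single cosine cannot follow its 2 highs. In all 4 WT groups its mean at ZT12 was below those at ZT8 and ZT16, so the fitted peak is not a time of highest level. The weakest of these 12 calls was Bhlhe40 in Bmal1 WT AL (adjusted p = 0.0304), and the others lay at or under 0.00732. Without 1 series of 6 libraries of the same group, the call of Bhlhe40 was lost in Bmal1 WT AL (without series 1 or 8, adjusted p = 0.247 and 0.408), in Bmal1 WT RF (series 2 or 4, 0.108 and 0.365), in Cry WT AL (series 4, 0.0859) and in Cry WT RF (series 6, 0.0509). That of Bhlhe41 was lost in Bmal1 WT RF (series 2, 0.0675) and in Cry WT AL (series 2 or 4, 0.0966 and 0.424), and no call of Ciart was lost.

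The 15 other E-box targets gave 15, 15, 14 and 15 rhythmic genes in the same 4 groups, with median ranges of 3.17, 3.08, 3.31 and 3.04 log2. Over all genes tested the median range was 0.455, 0.456, 0.406 and 0.519 log2. Ciart thus had a range above the median of these targets and Bhlhe40 one below it in every WT group. Ciart peaked close to Per3, a period gene of the clock (between ZT 12.3 and 12.9), and to Tef (between ZT 12.01 and 12.5). The fitted peak of Bhlhe40, which is not a time of highest level, lay near that of Hlf (between ZT 13.12 and 13.84). Nampt, the gene of the rate-limiting enzyme of NAD salvage, peaked between ZT 13.97 and 14.97. In Bmal1 WT RF the fitted peaks were at ZT 13.36 for Bhlhe40 and 14.97 for Nampt. Per3, Tef, Hlf and Nampt were picked after their values were seen, and none is named as the closest. The difference in timing between members and these genes was not tested.

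**Figure D2:**
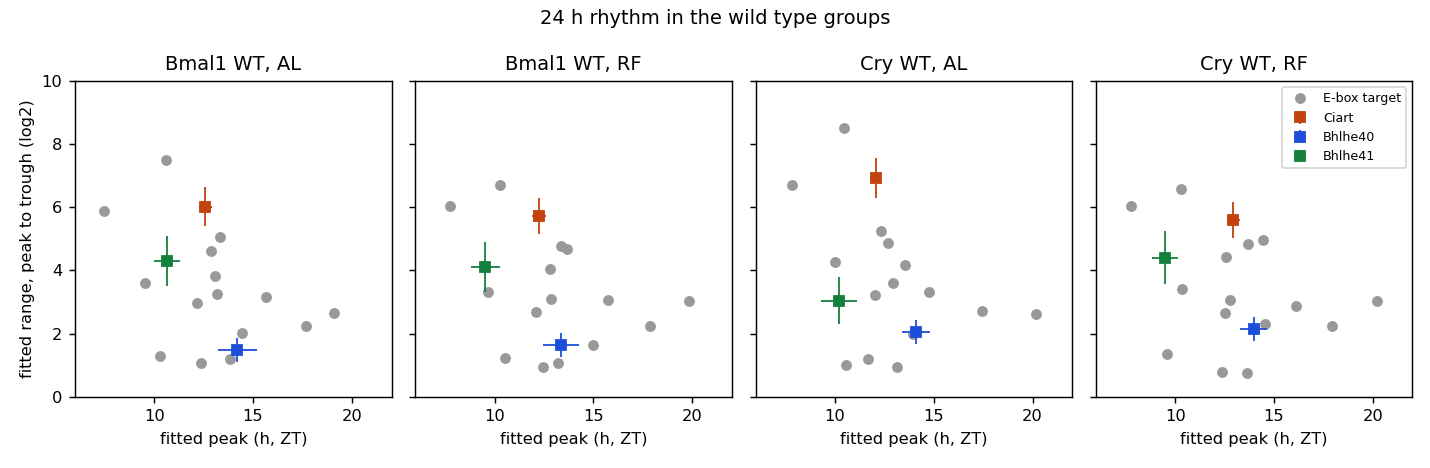
Fitted peak (h, ZT) against fitted peak-to-trough range (log2) in the 4 WT groups. Squares with SE bars are the 3 repressors and grey points are the 15 other E-box targets. Ciart sits near ZT12 with a range of 5.61 to 6.92 log2, and Bhlhe40 sits near ZT14 with a range of 1.48 to 2.15 log2.

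In livers without Bmal1, Bhlhe41 was nearly absent and Ciart stayed near its WT low at all hours, while no difference of the mean level passed for Bhlhe40. Bhlhe41 was read 7 times in all over the 12 libraries of Bmal1 KO AL and 12 times over those of Bmal1 KO RF. The WT libraries held 971 and 1117 counts. Of the KO libraries, 9 of 12 under AL and 6 of 12 under RF were at 0, and none had more than 3 counts. Pooled over the group, the level was 0.0232 CPM in KO and 3.79 CPM in WT under AL, a WT level 163 times that of KO (exact 95% Poisson interval 79.0 to 408, which covers counting error only). Under RF it was 0.0440 CPM in KO and 4.22 CPM in WT, a ratio of 95.8 (54.6 to 186). Every one of the 12 KO libraries lay below every WT library in both regimens. Of all genes tested, 1.9% under AL and 1.35% under RF had KO and WT libraries that did not overlap. The log2 difference averaged over the 6 times, each with equal weight, was called in both regimens (edgeR, adjusted p = 1.30e-16 under AL and 1.61e-15 under RF). No fitted fold is given because several KO time points held no count. Bhlhe41 passed the filter on low counts through the other groups and would not have passed on the Bmal1 KO libraries alone.

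Ciart ranged from 0.225 through a median of 0.530 to 0.822 CPM in Bmal1 KO AL, and from 0.329 through 0.753 to 2.17 CPM in Bmal1 KO RF. These KO medians were 0.0177 and 0.0241 of the WT mean at ZT12. They were also 1.28 and 2.35 times the lowest WT mean of the day, so the KO livers overlapped the WT livers sampled at ZT0 and ZT4. Averaged over the 6 times, the log2 difference was -2.80 ± 0.28 under AL (edgeR, adjusted p = 1.80e-11) and -2.20 ± 0.28 under RF (adjusted p = 1.77e-08). This is a mean of log2 differences and not the ratio of mean levels. The mean CPM of KO was 0.0539 of that of WT under AL and 0.0873 under RF. In these 2 comparisons 24.4% and 20.6% of all genes were called, 3847 and 3244 genes, with 10.7% and 10% called lower. These counts were 2396 without Bmal1 KO AL series 1, 2389 without Bmal1 WT AL series 1, 1982 without Bmal1 KO RF series 4 and 2077 without Bmal1 WT RF series 2. An antisense gene overlaps Ciart, and its median of 0.573 to 0.824 CPM over the 8 groups was close to the KO level of Ciart. The strand setting of the counting is not given in the sources used here, so reads from that overlap cannot be told apart. Bhlhe40 and Bhlhe41 also overlap an antisense gene each, which held 0.127% and 1.44% as many counts as the member over all libraries.

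Bhlhe40 ranged from 63.1 through 78.9 to 115 CPM in Bmal1 KO AL, and from 61.6 through 73.5 to 103 CPM in Bmal1 KO RF. These values lay inside the WT range in both regimens, above its low and below its peak. The mean difference was 0.09 ± 0.14 log2 under AL, with a 95% interval from -0.19 to 0.37 (adjusted p = 0.706). Under RF it was -0.17 ± 0.15 log2, with an interval from -0.45 to 0.12 (adjusted p = 0.477). The mean CPM of KO was 0.977 of that of WT under AL and 0.810 under RF. The KO median was 2.24 and 1.82 times the WT mean at ZT4, and 0.569 and 0.482 of the WT mean at ZT16.

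Taken time by time, the difference in Ciart lay in the hours when the gene is high in WT livers. It was called lower at ZT8, ZT12, ZT16 and ZT20 under AL and at ZT8, ZT12 and ZT16 under RF. It reached -5.67 ± 0.60 log2 at ZT12 under AL, and at ZT0 it was 0.50 ± 0.72 log2. Of all genes tested, 0.425%, 0.298%, 1.5%, 3.36%, 1.79% and 0.831% were called lower at ZT0, ZT4, ZT8, ZT12, ZT16 and ZT20 under AL, and 0.577%, 0.59%, 1.64%, 3.02%, 2.07% and 0.748% under RF. Bhlhe41 was called lower at 6 of 6 times under AL and at 5 of 6 under RF. For Bhlhe40 no time passed in either regimen by edgeR, DESeq2 or limma-voom on the filtered genes. The 6 estimates with an unadjusted p under 0.05 were 1.08 ± 0.36, 0.90 ± 0.36 and -0.73 ± 0.36 log2 at ZT0, ZT4 and ZT8 under AL, and 1.01 ± 0.36, -0.90 ± 0.36 and -0.95 ± 0.36 log2 at ZT4, ZT8 and ZT16 under RF. With no filter on low counts 5 of these 6 passed in edgeR (adjusted p = 0.00124 and 0.0265 at ZT0 and ZT4 under AL, and 0.00511, 0.0120 and 0.00328 at ZT4, ZT8 and ZT16 under RF). The call of Ciart at ZT20 under AL was lost without Bmal1 KO AL series 1 or 8 or Bmal1 WT AL series 1 (adjusted p = 0.118, 0.305 and 0.224). Those of Bhlhe41 at ZT0, ZT4 and ZT20 under AL and at ZT0 and ZT4 under RF did not hold either: each series of these Bmal1 groups, left out, ended at least 1 of them, with adjusted p between 0.0527 and 0.433.

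All 3 genes were higher in livers without Cry1 and Cry2, under both feeding regimens. The estimate was largest for Ciart and smallest for Bhlhe40. The lowest, median and highest levels of Ciart were 21.4, 28.0 and 47.7 CPM in Cry KO AL, and under RF they were 28.7, 43.5 and 60.4 CPM. The lowest KO library lay above every WT library not sampled at ZT12, and the KO medians were 0.781 and 1.35 times the WT mean at ZT12. In 4 of 12 KO libraries under AL and 6 of 12 under RF the level exceeded every WT library. The mean of the log2 differences at the 6 times was 3.42 ± 0.22 under AL (edgeR, adjusted p = 2.86e-18) and 3.12 ± 0.22 under RF (adjusted p = 1.72e-16). Each time has equal weight in it, those of the WT low included. The mean CPM of KO was 3.32 times that of WT under AL and 3.70 times under RF. In these comparisons 33% and 6.3% of all genes were called, with 19.7% and 3.28% called higher. Under AL the count of 5205 genes moved with a single series: it was 9895 without Cry KO AL series 1, 846 without series 2 of that group, 2588 without Cry WT AL series 2, 3185 without Cry WT AL series 4 and 1891 with the compared groups alone. Under RF the count of 994 was 370 without Cry KO RF series 5 and 539 without Cry WT RF series 6.

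In Cry KO AL Bhlhe41 had a lowest, median and highest level of 5.18, 6.50 and 12.1 CPM, and in Cry KO RF one of 3.78, 8.24 and 11.3 CPM. These levels were well above the WT low, and the KO medians were 0.595 and 0.601 of the WT mean at ZT8. In 1 of 12 KO libraries under AL and 0 of 12 under RF the level exceeded every WT library. The mean difference was 1.76 ± 0.23 log2 under AL (adjusted p = 1.16e-07) and 2.38 ± 0.25 log2 under RF (adjusted p = 4.77e-10). The mean CPM of KO was 2.19 times that of WT under AL and 2.49 times under RF.

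For Bhlhe40 these levels were 102, 126 and 181 CPM in Cry KO AL and 89.8, 170 and 261 CPM in Cry KO RF. Under RF, 7 of 12 KO libraries exceeded every WT library, and under AL 0 of 12 did. The mean difference was 0.48 ± 0.15 log2 under AL (adjusted p = 0.00903) and 0.94 ± 0.15 log2 under RF (adjusted p = 5.46e-06). The mean CPM of KO was 1.23 times that of WT under AL and 1.68 times under RF. The KO medians were 0.669 and 1.05 times the WT mean at ZT16. The AL difference did not pass without Cry KO AL series 1 (0.41 log2, adjusted p = 0.0527), without series 2 of that group (0.50 log2, adjusted p = 0.108), or with the compared groups fitted alone (0.48 log2, adjusted p = 0.0859).

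In Cry KO AL the 2 series differed in their endothelial and Kupffer cell marker sums, as given above. Their medians of Ciart were 27.7 CPM in series 1 and 36.8 CPM in series 2, those of Bhlhe40 126 and 126 CPM, and those of Bhlhe41 6.51 and 6.29 CPM. The part of the marker difference in these levels was not tested.

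At single times, the largest estimates of the excess in the Cry KO lay in the hours when the gene is low in WT livers. Ciart was called higher at ZT0, ZT4, ZT16 and ZT20 under AL and at ZT0, ZT4 and ZT20 under RF. Its estimates at ZT8 under AL and RF and at ZT16 under RF were also above 0 and did not pass (1.39 ± 0.46, 1.69 ± 0.46 and 1.60 ± 0.46 log2). The largest estimates of Ciart were 6.54 ± 0.63 log2 at ZT0 under AL and 6.50 ± 0.64 log2 at ZT4 under RF. At ZT12 they were -0.10 ± 0.45 and 0.58 ± 0.45 log2. The 2 Cry KO RF libraries at ZT4 were shallow, with 1478963 and 4541141 counts. They held 61 and 157 counts of Ciart and 6 and 25 of Bhlhe41. The second is among the libraries that stood apart, treated in the closing section. Bhlhe40 was called higher at ZT0 and ZT4 in both regimens, by 1.60 ± 0.36 and 1.58 ± 0.36 log2 under AL and by 2.34 ± 0.38 and 1.77 ± 0.37 log2 under RF. Bhlhe41 was called higher at ZT0 and ZT4 under AL and at ZT0, ZT4, ZT16 and ZT20 under RF. Its estimate at ZT8, the WT peak, was below 0 in both regimens and passed in neither (-0.95 ± 0.52 log2 under AL, adjusted p = 0.362, and -1.57 ± 0.53 log2 under RF, adjusted p = 0.193). The RF estimate at ZT8 passed by limma-voom (-1.59 log2, adjusted p = 0.00682) and in edgeR with no filter on low counts (-1.58 log2, adjusted p = 0.00309). From ZT0 to ZT20, 0.774%, 0.704%, 0.704%, 0.723%, 0.0761% and 0.285% of all genes were called higher under AL, and 0.418%, 0.824%, 0.596%, 0.805%, 0.139% and 0.216% under RF.

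Some of these single-time calls in the Cry line were lost when 1 series was left out. Such a fit has 1 library of that group at each time, so a lost call need not mean a different estimate. Ciart at ZT16 under AL was lost without Cry KO AL series 2 (adjusted p = 0.516) or Cry WT AL series 2 or 4 (0.119 and 0.466), and Ciart at ZT20 under RF without Cry WT RF series 6 (0.0722). Bhlhe40 under AL was lost at ZT0 and ZT4 without Cry KO AL series 2 (0.0557 and 0.0514) or Cry WT AL series 4 (0.0803 and 0.238), and under RF at ZT4 without Cry KO RF series 5 (0.231) or Cry WT RF series 6 or 9 (0.0749 and 0.201). Bhlhe41 was lost at ZT0 and ZT4 under AL without Cry WT AL series 4 (0.0803 and 0.260), at ZT4 under RF without Cry KO RF series 5 or Cry WT RF series 9 (0.456 and 0.0898), and at ZT16 under RF without any of the 4 series (0.127 to 0.431). Without Cry KO AL series 1, Ciart at ZT8 and Bhlhe41 at ZT16 under AL passed as well (adjusted p = 0.0210 and 0.0104).

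**Figure D3:**
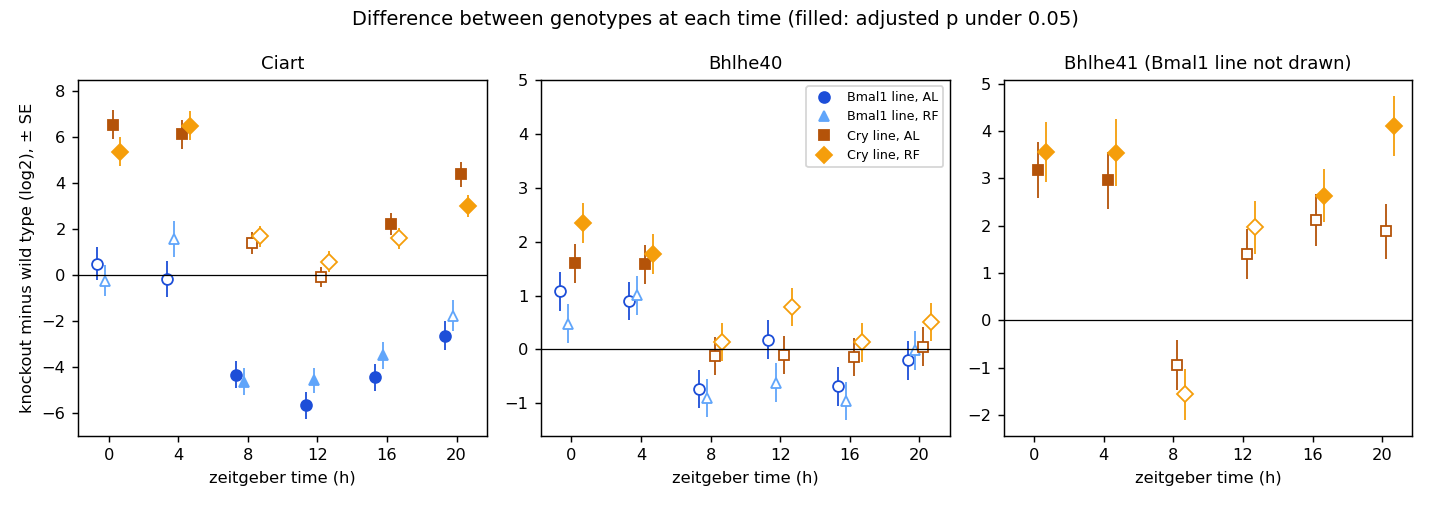
Difference between KO and WT (log2, ± SE, 2 libraries against 2) at each zeitgeber time (h). Filled symbols passed an adjusted p of 0.05, and Bhlhe41 in the Bmal1 line is left out because its KO libraries were near 0. Ciart in the Bmal1 line falls to -5.67 at ZT12 and in the Cry line rises to 6.54 at ZT0, with values near 0 at ZT0 in the first and at ZT12 in the second.

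The effects of the 2 knockouts were set against each other directly, with no library shared between them. The Cry KO effect minus the Bmal1 KO effect was 6.22 ± 0.37 log2 for Ciart under AL (adjusted p = 8.49e-20) and 5.32 ± 0.40 log2 under RF (adjusted p = 6.24e-16). For Bhlhe40 it was 0.39 ± 0.20 log2 under AL, which did not pass (adjusted p = 0.123; 0.58 log2 and adjusted p = 0.0166 without Cry WT AL series 2), and 1.11 ± 0.21 log2 under RF (adjusted p = 4.78e-05). For Bhlhe41 the difference passed in both regimens (adjusted p = 2.05e-18 and 1.36e-18). In these tests 40.8% of all genes under AL and 15.2% under RF were called. Of the 15 other E-box targets, 10 had the higher and 2 the lower effect in the Cry line under AL, and 11 and 2 under RF. The shares of all genes were 20.7% and 20.2% under AL and 7.39% and 7.82% under RF. These targets include Cry1 and Cry2, the genes deleted in the Cry line.

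No 24 h rhythm was called for any of the 3 genes in a KO group by edgeR or by limma-voom, and none had an unadjusted p under 0.05 there (0 of 10 tests, with Bhlhe41 in the Bmal1 KO left out). Over all genes, 0.0317%, 5.26%, 0% and 6.63% were rhythmic in the AL and RF groups of Bmal1 KO and then of Cry KO, and of the other E-box targets 0, 2, 0 and 0 of 15. In Cry KO AL limma-voom also called 0 genes, and 926 had an unadjusted p under 0.05 with the same range. The range of Ciart was 0.12 ± 0.79, 0.60 ± 0.70, 0.19 ± 0.48 and 0.59 ± 0.48 log2 in these groups. The loss of range was tested as a difference of the cosine terms between KO and WT, and it passed for Ciart in all 4 comparisons (adjusted p = 2.31e-04, 1.00e-03, 4.14e-09 and 1.09e-04). These tests called 0.767%, 1.32%, 0.913% and 2.66% of all genes. Under RF the Bmal1 difference did not pass without Bmal1 KO RF series 2 (-4.26 log2, adjusted p = 0.108).

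Bhlhe40 had KO ranges of 0.38 ± 0.38, 0.16 ± 0.38, 0.32 ± 0.38 and 0.42 ± 0.38 log2, each under the WT range of the same line and regimen. None of the 4 differences passed in edgeR (adjusted p = 0.558, 0.206, 0.144 and 0.0849) or in limma-voom, though each had an unadjusted p at or under 0.0275. Bhlhe41 had ranges of 0.47 ± 0.70 log2 in Cry KO AL and 1.04 ± 0.73 log2 in Cry KO RF. Its difference from WT passed under RF (adjusted p = 0.00452) but not under AL (adjusted p = 0.271). The RF difference did not pass without Cry KO RF series 3 or 5 (adjusted p = 0.0714 and 0.157) or without Cry WT RF series 9 (0.0846). No rhythm could be estimated for it in the Bmal1 KO, where the libraries were near 0.

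No RF minus AL difference of a mean level passed in edgeR for any of them (0 of 11, with Bhlhe41 in Bmal1 KO left out, of which 3 of Ciart and 1 of Bhlhe40 had an unadjusted p under 0.05), although 15.7%, 0.545%, 1.59% and 18.2% of all genes were called in Bmal1 WT, Bmal1 KO, Cry WT and Cry KO. The largest estimates were those of Ciart in Cry WT, 0.73 ± 0.24 log2 (95% interval 0.26 to 1.20, adjusted p = 0.101; 0.76 log2 and 0.0400 by DESeq2), and in Bmal1 KO, 0.69 ± 0.29 log2 (interval 0.12 to 1.25, adjusted p = 0.268). Bhlhe40 in Cry KO had 0.31 ± 0.15 log2 (interval 0.03 to 0.60, adjusted p = 0.123). By limma-voom Ciart passed in Cry KO (0.47 log2, adjusted p = 0.0493). Without Cry WT RF series 6 Bhlhe41 also passed in Cry WT (-2.00 log2). The lone Cry WT RF library left at ZT0 held 0 counts of Bhlhe41, so this value is not an estimate of the fold. No difference of the knockout effect between regimens passed for a member tested. In the Bmal1 line it was 0.60 ± 0.38 log2 for Ciart (adjusted p = 0.768) and -0.25 ± 0.21 for Bhlhe40 (adjusted p = 0.795), and Bhlhe41 could not be tested. In the Cry line it was 0.47 ± 0.21 log2 for Bhlhe40 (adjusted p = 0.156), 0.61 ± 0.33 for Bhlhe41 (adjusted p = 0.254) and -0.30 ± 0.30 for Ciart (adjusted p = 0.582). These tests called 6.33% of all genes in the Cry line and 0% in the Bmal1 line, where DESeq2 called 11 genes, limma-voom 0, and 1036 had an unadjusted p under 0.05. Between the WT groups of the 2 lines no difference passed for a member, where 20.5% of all genes under AL and 0.856% under RF were called. A difference of rhythm between regimens passed for no member in WT or KO.

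The other genes of the pathway were read in the same comparisons. Of the 15 E-box targets, 3 were higher and 6 lower in Bmal1 KO AL, and 3 higher and 9 lower in Bmal1 KO RF. Of all genes tested, 13.7% were higher and 10.7% lower under AL, and 10.5% and 10% under RF. In Cry KO 12 targets were higher and 2 lower in both regimens, against 19.7% and 13.3% of all genes under AL and 3.28% and 3.02% under RF. Their median was -0.20 and -0.31 log2 in the Bmal1 line and 1.35 and 1.19 log2 in the Cry line, where the median of all genes was 0.02, 0.01, -0.03 and -0.03 log2. Nr1d1, which encodes the nuclear receptor REV-ERBalpha, fell furthest in the Bmal1 KO (-3.68 ± 0.19 log2 under AL, -3.00 ± 0.18 under RF). The smallest changes there were those of Per1 under AL (0.01 ± 0.23) and Per2 under RF (-0.06 ± 0.17), both period genes. Cry1 and Cry2 were among the targets that rose in the Bmal1 KO in both regimens, and were named after their values were seen.

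In the Cry KO, Dbp, a PAR bZIP transcription factor gene, rose furthest among the targets (3.49 ± 0.20 log2 under AL, 2.80 ± 0.20 under RF). Ppara, a receptor of fatty acid metabolism, changed least (-0.23 ± 0.19 and 0.08 ± 0.19 log2). The 2 targets that fell were the deleted genes Cry1 and Cry2. Of the 4 activators, 2 under AL and 3 under RF were higher in the Bmal1 KO, under RF among them the targeted gene Arntl, and none of the others passed. In the Cry KO 2 under AL and 1 under RF were lower. Npas2, the partner of BMAL1 that can stand in for CLOCK, had the largest change (4.79 ± 0.19 and 4.96 ± 0.19 log2 in the Bmal1 KO). In the Cry KO it was read 5 times over 12 libraries under AL and 2 times under RF, against 2052 and 1477 counts in WT. Arntl2 changed least in the Bmal1 KO (0.12 ± 0.20 and 0.41 ± 0.21 log2) and in Cry KO AL (-0.27 ± 0.20), and Arntl changed least in Cry KO RF (0.02 ± 0.13). These are log2 differences averaged over the 6 times and do not show the daily profile. Under RF the fitted 24 h range of Arntl was 4.73 log2 in Cry WT and 0.454 in Cry KO, and 5.11 in Bmal1 WT and 0.199 in Bmal1 KO. Its median was 18.2 and 11.4 CPM in the first pair and 23.6 and 14.9 CPM in the second.

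**Figure D4:**
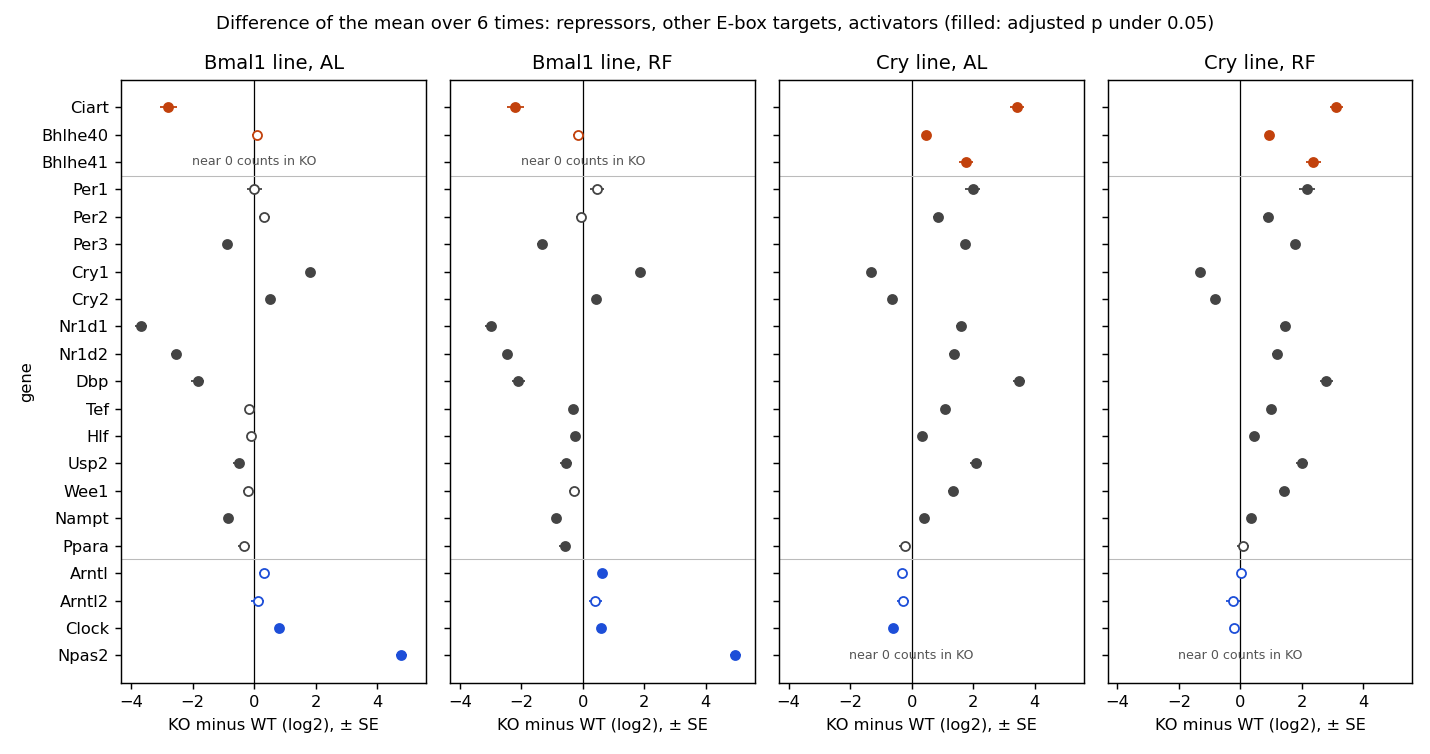
Difference between KO and WT averaged over the 6 times (log2, ± SE) for the 3 repressors (orange), 14 of the 15 other E-box targets (grey) and 4 activators (blue). Filled points passed an adjusted p of 0.05, and genes near 0 counts in the KO are not drawn. Ciart moves from -2.80 and -2.20 in the Bmal1 line to 3.42 and 3.12 in the Cry line, while Bhlhe40 runs from 0.09 and -0.17 to 0.48 and 0.94.

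The genes most like each repressor were sought by Pearson correlation of mean log2(CPM + 0.25) over the 48 combinations of group and time, among 12469 genes that averaged at least 1 CPM. These points share libraries and clock phase, so r is a description. Ciart was closest to Per3 (r = 0.945), Lrp4 (0.930), Coq10b (0.925), Ccne1 (0.914) and Tnks1bp1 (0.910). Over the 24 WT points it was closest to Per3 (0.972), Usp2 (0.969), Klf13 (0.960), Wee1 (0.960) and Lrp4 (0.956). Usp2 encodes a ubiquitin protease and Wee1 a kinase of the cell cycle, and both are known E-box targets.

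Bhlhe40 was closest to Wee1 (0.895), Usp2 (0.884), Gm45819 (0.876), Per3 (0.853) and Per2 (0.847) over the 48 points. Over the WT points its nearest genes were Mtss1 (0.916), Wee1 (0.896), Usp2 (0.895) and Cyp2a5 (0.894). Bhlhe41 was closest to Lrp4 (0.916), Ak4 (0.897), Maff (0.889), Syne3 (0.887) and Susd1 (0.884). In WT livers alone its list was Fnip2 (0.902), Epha1 (0.888), Narf (0.884), Ppara (0.884) and Nup50 (0.882). Between the members themselves r was 0.879 for Ciart with Bhlhe41, 0.794 for Ciart with Bhlhe40 and 0.631 for Bhlhe40 with Bhlhe41 over the 48 points. In the WT points alone these values were 0.738, 0.837 and 0.645, so the pair closest over all groups was not the pair closest in WT livers.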

How the data were processed

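Liver mRNA from 96 libraries (TruSeq Stranded mRNA kit, per the labels' protocols) was sequenced in paired-end mode and aligned with STAR 2.4.0i to mm10, per the submitters' processing notes. For the counting step, the tool, the strand setting and the annotation were not given in the sources used here. The authors deposited raw counts per Ensembl gene. Of 55421 identifiers, 55154 matched a symbol in GENCODE M21 and 267 did not.

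Groups and times were taken from the labels. The counts were scaled by TMM and filtered with edgeR's filterByExpr by group at a minimum count of 10 and a total of 15. Of the 35670 genes read at least 1 time, 15772 passed, and they held 99.94% of counts. edgeR 4.0.16 (R 4.3.3) fitted quasi-likelihood models to all 96 libraries. One had 48 means, for 8 groups and 6 times, and gave 14 comparisons of mean level and 24 at single times. The other had a mean and 24 h cosine and sine terms per group, and gave 8 rhythm tests and 8 differences of rhythm. A comparison of mean level is the mean of the log2 differences at the 6 times, each with equal weight. It is not the log2 ratio of mean CPM. P-values were adjusted by Benjamini-Hochberg over all genes within each comparison, with 0.05 as the threshold. Intervals on pooled counts are exact 95% Poisson intervals and cover counting error only.

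DESeq2 1.42.0, limma-voom 3.58.1, other scaling and filters, and left-out libraries were alternatives, and the closing section gives their effect. The models were tested on simulated data with known changes. The named genes were the 3 members, the pathway genes with the largest and smallest change in each knockout comparison, and the 5 genes most alike, except that 1 target and 1 gene most alike are not reported here. The members, gene lists and tests were chosen with earlier results of these data known. Libraries at the same time in the same group differed by more than sampling noise (chi-square per degree of freedom of at least 10.1), so each counted once. This excess cannot tell separate animals from separate preparations of 1 RNA or pool.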

Additional observations from a re-analysis of the deposited data

Results flagged for a closer look

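The effect of the knockout on a repressor's mean level differed between the 2 mouse lines in 5 tests of that difference (edgeR quasi-likelihood test, Cry KO effect minus Bmal1 KO effect). For Ciart it was 6.22 log2 under AL (adjusted p = 8.49e-20) and 5.32 log2 under RF (adjusted p = 6.24e-16). For Bhlhe40 it was 1.11 log2 under RF (adjusted p = 4.78e-05). For Bhlhe41 it passed under AL (adjusted p = 2.05e-18) and under RF (adjusted p = 1.36e-18), with no fold given because the Bmal1 KO libraries were near 0.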

How the results depend on the processing

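Of 523 mean comparisons of the 3 repressors recomputed under alternatives, 509 kept their direction and their side of the threshold, as did 245 of 256 rhythm tests, 259 of 273 rhythm differences and 751 of 828 knockout effects at single times. None that had passed changed sign. Among estimates that had not passed, 41 changed sign and still did not pass. The cause was not tested for any change below.

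With the compared groups fitted alone, Bhlhe40 lost its rhythm in Bmal1 WT AL (1.47 log2) and Cry WT AL (2.07) and its difference in Cry KO AL (0.48). With no filter on low counts, Bhlhe40 passed for the line difference under AL (0.39), the feeding interaction in the Cry line (0.46), RF minus AL in Cry KO (0.31) and the 4 rhythm differences (-1.11, -1.50, -1.76 and -1.72). So did Bhlhe41 for the rhythm difference in Cry AL (-2.60), and Ciart for RF minus AL in Bmal1 KO (0.66), Cry KO (0.43) and Cry WT (0.73) and for the rhythm difference between regimens in Cry WT (-1.31). With 6 time means in place of the cosine, the rhythm differences passed for Bhlhe40 in Cry AL (-1.67) and RF (-1.30) and for Bhlhe41 in Cry AL (-3.04). By limma-voom Ciart passed for RF minus AL in Cry KO (0.47), and by DESeq2, which was run for mean levels only, in Cry WT (0.76).

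At single times, 72 knockout effects were tested. With no filter 16 more passed, with a mean of at least 1 CPM 2 more, by DESeq2 4 more, and by limma-voom 7 more passed and 5 no longer did. The limma-voom calls went from 7 to 10 for Ciart and 6 to 10 for Bhlhe41 in the Cry line, and from 11 to 7 for Bhlhe41 in the Bmal1 line. Without the 7 libraries that stood apart 3 calls were lost, and without 1 series at a time 38 of 288 values lost a call and 2 gained one.

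Without 1 series at a time, the ranges were, for the rhythm of Bhlhe40, 1.33 to 1.64, 1.37 to 1.95, 1.85 to 2.83 and 2.08 to 2.30 log2 in Bmal1 WT AL, Bmal1 WT RF, Cry WT AL and Cry WT RF, and for that of Bhlhe41 4.03 to 4.30 in Bmal1 WT RF and 2.27 to 3.97 in Cry WT AL. They were 0.41 to 0.66 for Bhlhe40 in Cry KO AL and 0.30 to 0.58 for its line difference under AL. For Bhlhe41 they were -2.00 to -0.11 for RF minus AL in Cry WT and -5.58 to -2.71 for the rhythm difference in Cry RF. For the rhythm difference of Ciart in Bmal1 RF they were -5.18 to -4.26. Fits without Cry WT RF series 6 leave 1 library at ZT0, with 0 counts of Bhlhe41, and -2.00 came from such a fit. A lone library left at a time is assumed to vary like the others.

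2 alternatives were chosen after seeing the data. Without 7 libraries that stood apart in Saa1, Isg15 or Ctrb1, Ciart passed for RF minus AL in Cry WT (0.90) and Bhlhe40 for the rhythm difference in Cry RF (-2.26), and the genes called in Cry KO RF went from 994 to 537. Without the 3 shallowest libraries every mean comparison, rhythm and rhythm difference of the members kept its side of the threshold.

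Series numbers are shared by KO and WT groups of the Bmal1 line. Libraries of the same number and time deviated together with r over 0.1 in 5 of 12 pairs (-0.0759 to 0.265), so the numbers were not taken as pairs. With the replicate block Ciart differed by -2.80 and -2.22 log2 in Bmal1 KO AL and RF, and 3996 and 3276 genes were called in place of 3847 and 3244. Depth limits the low times: at the least, Ciart had 5 counts in a WT library and Bhlhe41 none.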
